A study of Mus musculus with 12 samples.

Results

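The clustered protocadherins are 3 neighbouring families of cell adhesion genes, alpha, beta and gamma, that lie in tandem on mouse chromosome 18. The 56 genes described here were taken by their GENCODE M21 symbols, namely Pcdha, Pcdhb, Pcdhga, Pcdhgb or Pcdhgc followed by digits, or Pcdhac1 or Pcdhac2, with a total of at least 60 counts over 12 cortex libraries. The count table held 54532 genes, of which 58 carried such a symbol. The alpha cluster gave 13 members, the beta cluster 21 and the gamma cluster 22. Just inside the limit lay Pcdha8 with 76 counts in all libraries together, and outside it lay Pcdhb1 with 33 counts and Pcdha4 with 0.

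Clustered protocadherins are membrane proteins with extracellular cadherin repeats that pair across cells with copies of the same isoform. Each neuron switches on its own small mixture of the variable isoforms by choosing among alternative promoters, a choice that depends on DNA methylation and on loops made by CTCF and cohesin, and the mixture serves as a surface identity by which branches of the same neuron recognise and avoid each other. The last genes of the alpha and gamma clusters, called C-type (Pcdhac1, Pcdhac2, Pcdhgc3, Pcdhgc4 and Pcdhgc5), are regulated differently and are expressed more broadly across neurons of a type.

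The study asked how loss of Hras, a small GTPase of the Ras family, changed the cortical transcriptome of APP/PS1 mice, which carry transgenes for an amyloid precursor protein and a presenilin. Messenger RNA from the frontal cortex of mice 9 months old was sequenced, with 3 males and 3 females of the genotype APP/PS1 and as many of each sex of the genotype APP/PS1/Hras-/-. Both genotypes carried the APP/PS1 transgenes, so the amyloid background was shared by all 12 mice, and no mouse without the transgenes was analysed here. The sources used here do not name the transgene promoters or the design of the Hras allele. Mice are numbered within each group in the order of deposit.

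The 12 libraries held 13984692 to 20174131 counts each. Levels are in CPM, counts relative to a library size adjusted by TMM. Hras stood at 73.6 to 101.6 CPM in the 6 APP/PS1 libraries and at 19.4 to 23.4 CPM in the 6 knockout libraries (log2 difference −1.95, SE 0.077, adjusted p = 3.04e-09, edgeR quasi-likelihood test). Defining markers of cortical excitatory neurons were present in all libraries, with Slc17a7, the vesicular glutamate transporter, at 964 to 1444 CPM and Tbr1, a cortical transcription factor, at 74.6 to 156 CPM. APP/PS1 male 1, which had the lowest RNA integrity number (RIN, 7.8 against 8.2 to 8.7), stood apart in the protocadherin clusters. The alpha and gamma sums by genotype and the members' median differences that include this mouse are given with and without it. Cluster medians and most single genes are given only with it. Levels in bulk tissue cannot tell fewer expressing cells from less RNA per cell.

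On GRCm38 the 56 genes lay on the plus strand of chromosome 18 between positions 36930184 and 37841873, a span of 912 kb. Alpha genes occupied 36930184 to 37187661, beta members 37294812 to 37524479 and gamma genes 37661793 to 37841873. All 21 beta members were annotated as a lone exon block and 19 of them shared no base with another gene on the same strand. Every alpha and gamma gene model instead ended in the constant exons of its cluster, which encode the common cytoplasmic part. The median alpha model held 5353 exonic bases, of which a median of 2860 were shared with another gene, and the median gamma model 4819, of which a median of 2119 were shared. Reads from the constant exons therefore could not be assigned to one variable exon by position alone.

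The counts bore on how such reads and antisense reads had been treated. All 4 genes of the locus whose exon bases were all shared on the same strand had 0 counts in every library, and among all genes 11 of 752 such genes (1.46%) had any count. Of genes whose own bases on their strand were all overlapped on the opposite strand, 201 of 476 (42.2%) had a count, against 57.1% of all genes. Pcdhga10, a gamma A isoform of this kind, had 1320 counts. Levels per kb are therefore given over exon bases that no other gene overlaps on the same strand, a length chosen after this was seen, and over bases free of overlap on either strand where this moves the value by more than 1.5 times. How reads with several alignments were handled is not stated, and counts of similar isoforms carry that uncertainty. Pcdha4 had 0 counts in all 12 libraries (3 counts in total would be the limit that a count of 0 allows), and 494 of the 5768 bases of its model were its own.

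Per kb of same-strand length, 3 of the 5 C-type genes held the highest levels of all members. Pcdhgc5, an isoform that appears late in postnatal brain and is found at some synapses, stood at 90.7 ± 14.2 CPM (SD, n = 12), or 19.7 ± 3.08 CPM per kb. Pcdhgc3, which is widely expressed in the brain, stood at 61.9 ± 6.91 CPM, or 18.3 ± 2.04 CPM per kb on same-strand length and 34.0 on either-strand length. These values put Pcdhgc3 and Pcdhgc5 within each other's spread on the same-strand length, and Pcdhgc3 higher on the other. Pcdhac2, known for its part in the spacing of serotonergic axons, followed at 29.2 ± 4.90 CPM, or 9.66 ± 1.62 CPM per kb. Pcdhgc4, the isoform needed for survival of many interneurons, stood at 12.4 ± 1.70 CPM, or 3.56 ± 0.488 CPM per kb. Pcdhac1, the remaining C-type gene, stood at 3.20 ± 0.518 CPM, or 1.25 ± 0.202 CPM per kb, among the variable isoforms in level.

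The variable isoforms were lower and differed by cluster. Taking in each library the median gene of a class, the mean over 12 libraries was 9.66 CPM per kb for C-type genes, 3.66 for the 12 gamma A genes, 1.93 for the 7 gamma B genes, 1.33 for the 21 beta genes and 0.963 for the 11 variable alpha genes (4.04 for gamma A and 1.15 for alpha on either-strand length). On the library scale the 5 C-type genes took 41036 of the members' counts, more than the 21 beta genes together (30339), the gamma A genes (25652), the gamma B genes (7507) or the variable alpha genes (6320). Pcdhga11 led the variable gamma genes at 6.53 CPM per kb (13.7 on either-strand length) and 17.2 ± 2.94 CPM. In the beta cluster the highest CPM were those of Pcdhb9 (15.8 ± 1.75 CPM), Pcdhb17 (14.5 ± 1.33 CPM) and Pcdhb22 (12.1 ± 1.22 CPM), and per kb these stood at 5.16, 3.11 and 1.97 CPM. Pcdha12 was the highest variable alpha gene per kb at 2.71 CPM (6.72 ± 2.06 CPM over the gene), followed by Pcdha9 at 1.66 CPM per kb (4.11 ± 1.04 CPM).

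The lowest levels per kb were those of Pcdha8 at 0.150, Pcdhgb8, annotated as a polymorphic pseudogene, at 0.244 and Pcdha1 at 0.337 CPM per kb. Over the gene these stood at 0.372 ± 0.264, 0.610 ± 0.269 and 0.838 ± 0.302 CPM, and Pcdha2 at 1.65 ± 0.390 CPM. Pcdhgb4 (3.10 ± 0.985 CPM) and Pcdhgb5 (3.56 ± 0.713 CPM) were the next lowest gamma genes by CPM, and Pcdhb4 (2.37 ± 0.408 CPM), Pcdhb6 (2.56 ± 0.515 CPM) and Pcdhb21 (2.61 ± 0.696 CPM) the lowest beta members. The last gene of the alpha cluster, Pcdhac2, was thus its highest, and 2 of the last 3 genes of the gamma cluster were the highest there, while the low members were scattered among the variable genes. The annotation gave 2 genes the symbol Pcdha11, ENSMUSG00000007440 at 3.35 ± 1.39 CPM and ENSMUSG00000102206 at 3.50 ± 0.759 CPM (0.760 CPM per kb, or 2.76 on either-strand length), and they are named by these identifiers.

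**Figure D1:**
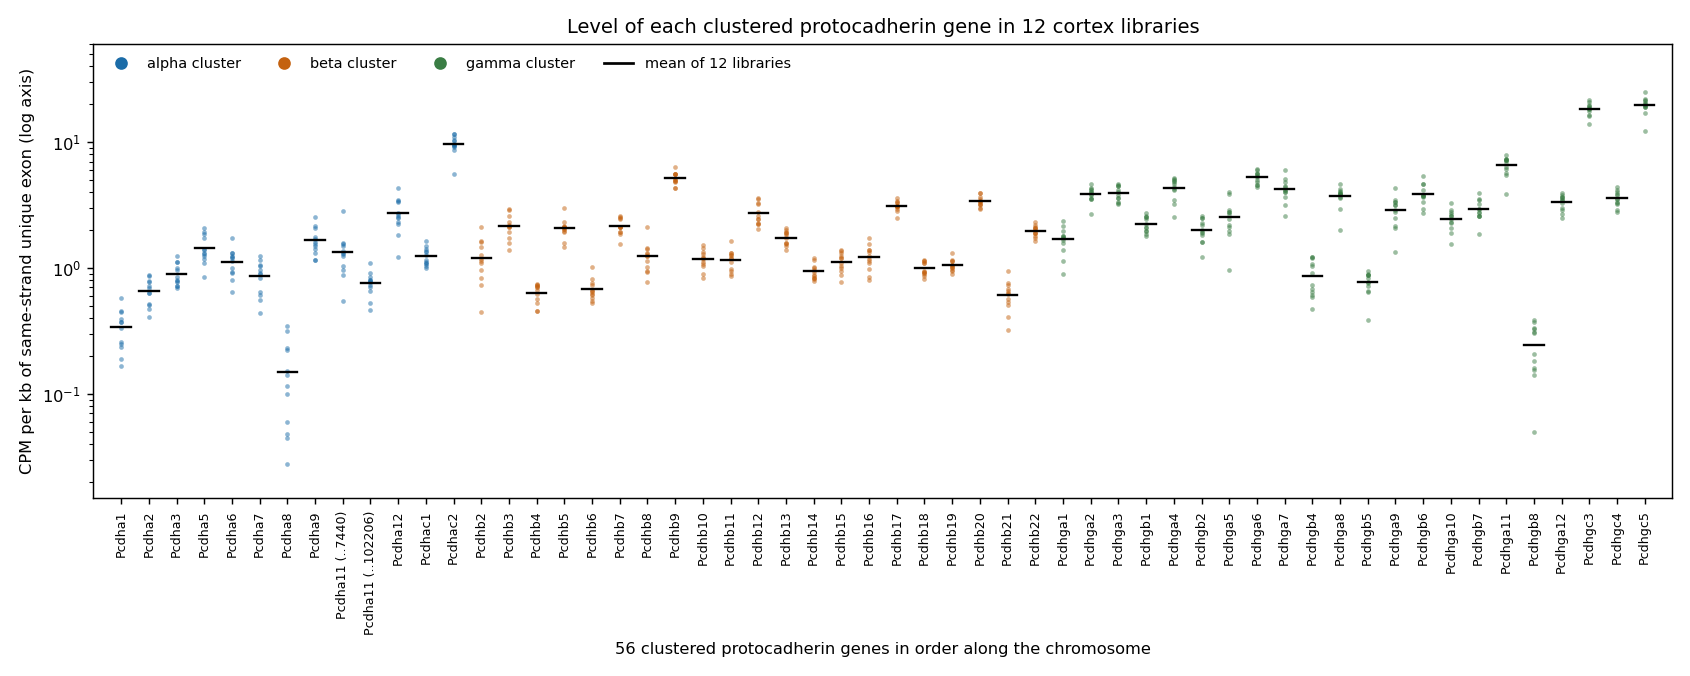
Level of each of the 56 genes in each of 12 libraries (points) with the mean (bar), in CPM per kb of exon not shared on the same strand, on a log axis, in order along the chromosome. Pcdhgc5 (19.7), Pcdhgc3 (18.3) and Pcdhac2 (9.66) lay above all variable isoforms, and Pcdha8 and Pcdhgb8 lay lowest and scattered most.

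Summed over its members, without regard to length, the gamma cluster gave a mean of 60.7% of the protocadherin CPM, the beta cluster 27.5% and the alpha cluster 11.7% over the 12 libraries. C-type genes made up 47.5 to 54.2% of alpha CPM and 48.8 to 53.1% of gamma CPM in single libraries. Their mean share of alpha was 52.3 ± 1.36% in APP/PS1 and 50.8 ± 2.61% in APP/PS1/Hras-/- mice, and of gamma 51.5 ± 0.860% and 50.1 ± 0.999% (SD, n = 6 each). The shares of the genotypes overlapped.

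In APP/PS1 males 1 to 3 the summed alpha level was 38.5, 65.6 and 63.8 CPM, and in APP/PS1 females 1 to 3 it was 70.3, 61.7 and 58.3 CPM. In APP/PS1/Hras-/- males it was 72.5, 59.6 and 66.2 CPM, and in the knockout females it was 81.5, 58.2 and 59.5 CPM. All groups overlapped once APP/PS1 male 1, the lowest library, was set aside. By genotype the sum was 59.7 ± 11.1 CPM in APP/PS1 and 66.3 ± 9.22 CPM in APP/PS1/Hras-/- mice (SD, n = 6 each), and 63.9 ± 4.44 CPM in APP/PS1 without APP/PS1 male 1 (n = 5).

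The summed beta level ran from 133 to 145 CPM in APP/PS1 males, 139 to 158 CPM in APP/PS1 females, 131 to 152 CPM in knockout males and 138 to 162 CPM in knockout females. All 4 ranges overlapped. By genotype it was 144 ± 11.1 CPM in APP/PS1 and 148 ± 11.2 CPM in APP/PS1/Hras-/- mice.

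The summed gamma level was 222, 324 and 335 CPM in APP/PS1 males and 357, 329 and 318 CPM in APP/PS1 females. It was 358, 345 and 334 CPM in APP/PS1/Hras-/- males and 354, 306 and 316 CPM in the knockout females. APP/PS1 male 1 was again the lowest library, and the other 11 lay between 306 and 358 CPM with the groups interleaved. The mean was 314 ± 47.3 CPM in APP/PS1 and 335 ± 21.1 CPM in APP/PS1/Hras-/- mice, and 333 ± 15 CPM in APP/PS1 without that mouse. For each cluster the genotype means differed by less than the SD between APP/PS1 mice, although for gamma the difference slightly exceeded the SD between knockout mice.

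**Figure D2:**
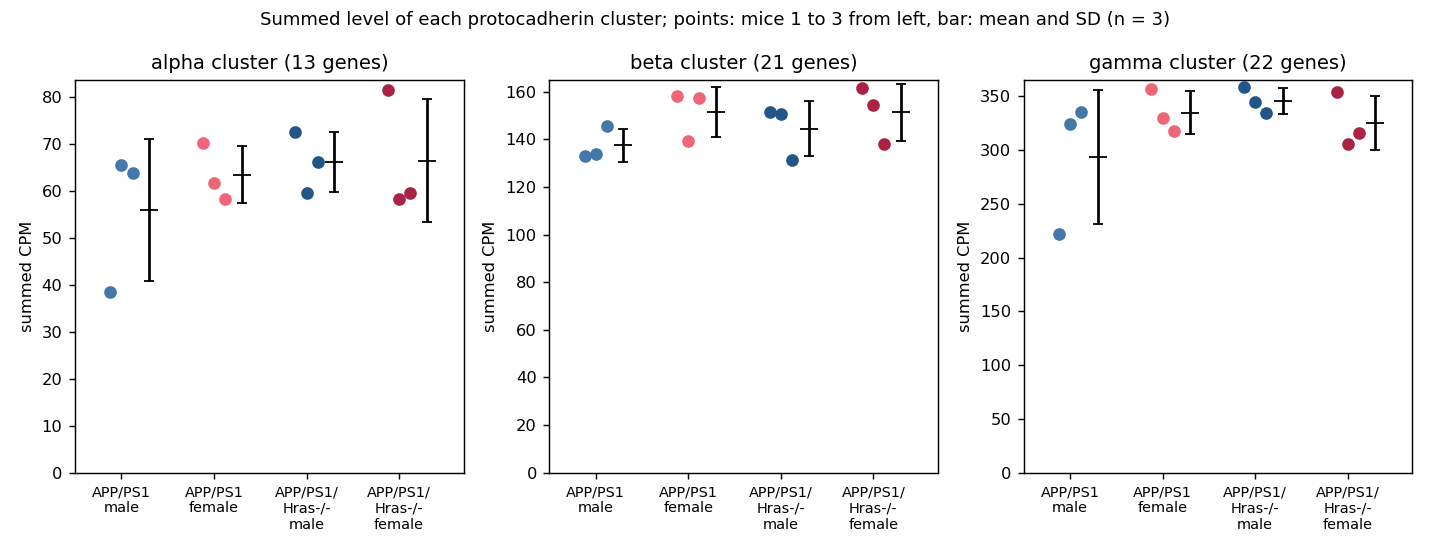
Summed CPM of the alpha, beta and gamma clusters in each mouse (points, mice 1 to 3 from left) with mean and SD (n = 3) for the 4 groups; axes start at 0. APP/PS1 male 1 lay at 38.5 CPM for alpha and 222 CPM for gamma, while its beta sum of 133 CPM lay within the range of the other mice.

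In APP/PS1 male 1 the clusters did not move alike. Its alpha sum was 60.3% and its gamma sum 66.3% of the median of the other 11 mice, while its beta sum was 88.4%. Gene by gene it lay below the median of the others for 13 of 13 alpha, 22 of 22 gamma and 15 of 21 beta members, and below all others for 5 alpha, 15 gamma and 2 beta members. The median member stood at 67.1% of the other mice's median in alpha, 65.1% in gamma and 96.1% in beta. C-type and variable genes of the gamma cluster were low to a like degree (summed C-type genes of both clusters at 66.3% and variable gamma genes at 66.9%). As a result the beta share of protocadherin CPM was 33.8% in this mouse and 24.7 to 29.8% in the other 11. RIN was lowest in the same mouse. Correlations of RIN with C-type genes over all mice are given below, and the part of RIN in the levels of this mouse was not tested.

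**Figure D3:**
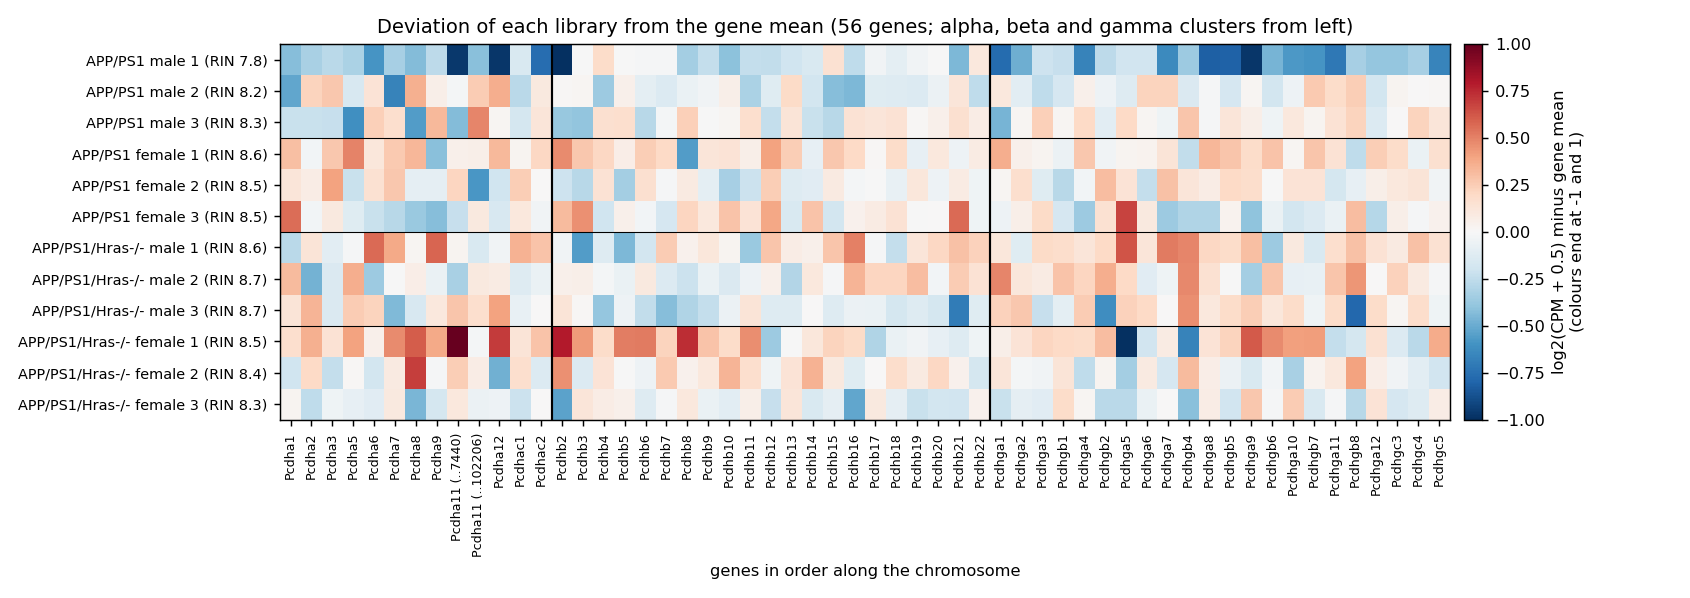
Deviation of each library from the mean of each gene, as log2(CPM + 0.5), for the 56 genes in order along the chromosome (columns) and the 12 libraries with their RIN (rows); blue is below and red above the gene's mean, and colours end at −1 and 1. APP/PS1 male 1 was blue across the alpha and gamma clusters and near the mean over most of the beta cluster.

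Across the 12 mice the levels of Pcdhac2 and Pcdhgc5, the most abundant C-type genes of the alpha and gamma clusters, moved together (Pearson r = 0.962, permutation p = 2e-05, adjusted p = 0.0003; Spearman rho = 0.839, permutation p = 0.00116, adjusted p = 0.0174, adjusted over 15 relations among the C-type genes and RIN). Pcdhac2 stood at 16.7, 30.8 and 31.3 CPM in APP/PS1 males, 33.3, 28.9 and 28.0 CPM in APP/PS1 females, 35.2, 27.5 and 28.9 CPM in knockout males and 35.2, 26.1 and 28.8 CPM in knockout females. Pcdhgc5 stood in the same order at 56.5, 90.3 and 97.5 CPM, 100.3, 87.6 and 92.3 CPM, 99.4, 88.9 and 86.9 CPM, and 116, 78.4 and 94.2 CPM. Both genes were lowest in APP/PS1 male 1 and high in APP/PS1/Hras-/- female 1, and without this pair, the mice farthest from the median of Pcdhac2, r was 0.838. Without APP/PS1 male 1 alone it was 0.869.

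Pcdhgc3 and Pcdhgc5 had a correlation of 0.52 (permutation p = 0.0941, adjusted p = 0.176; rho = 0.182, permutation p = 0.573, adjusted p = 0.661), which turned to −0.159 without APP/PS1 male 1 and APP/PS1/Hras-/- male 2. The level of Pcdhgc3 instead moved with RIN (r = 0.804, permutation p = 0.00352, adjusted p = 0.0264; rho = 0.683, permutation p = 0.0165, adjusted p = 0.124). Without APP/PS1 males 1 and 2, the mice farthest from the median RIN, r was 0.657, and without APP/PS1 male 1 alone 0.555. Pcdhac2 had r = 0.697 with RIN (permutation p = 0.0359, adjusted p = 0.119; rho = 0.234, permutation p = 0.463, adjusted p = 0.661) and Pcdhgc5 r = 0.662 (permutation p = 0.0409, adjusted p = 0.119; rho = 0.198, permutation p = 0.53, adjusted p = 0.661). These relations rested on the same APP/PS1 males, without which r was 0.106 and −0.03. RIN also differed between groups (7.8 to 8.3 in APP/PS1 males, 8.5 to 8.6 in APP/PS1 females, 8.6 to 8.7 in knockout males, 8.3 to 8.5 in knockout females), so that these relations run across groups that differ in RIN.

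Loss of Hras was first compared across both sexes, in a model with sex and genotype. No member was called among the 55 that passed the filter on low counts (adjusted p under 0.05 over 17307 genes, edgeR; Pcdha8 did not pass), and 0.0173% of all genes were called. DESeq2 and limma-voom also called 0 members. At an unadjusted p under 0.05 edgeR placed 3 members higher in the knockout (Pcdhgb1, Pcdhga12 and ENSMUSG00000007440 of the Pcdha11 pair) and 0 lower (5.45% of members), against 1.68% of all genes. For 0 members did the genotypes separate, against 0.116% of all genes in either direction. The estimates were higher in the knockout for 42 members and lower for 13, with a median log2 difference of 0.10, against 0.00 for all genes tested. By cluster the medians were 0.13 for alpha (10 of 12 higher), 0.11 for gamma (19 of 22) and 0.03 for beta (13 of 21). Without APP/PS1 male 1 the members' median was 0.02 with 36 higher and 20 lower, and with RIN as a covariate it was −0.01 with 25 higher and 30 lower. It was 0.05 without APP/PS1/Hras-/- male 1 and 0.06 without APP/PS1/Hras-/- female 1. Medians without a library are over the same 55 members, and counts are over the members that then passed the filter. Of 109 cell type markers tested, edgeR called 0 in each of the 7 comparisons. An unadjusted p under 0.05 was held by 2 (across sexes) to 35 (sex in APP/PS1). Over all genes 1.68% and 10.7% held one in these 2 comparisons. Across sexes the estimates were lower in the knockout for 12 of 12 striatal neuron markers (median −0.29) and 10 of 10 choroid plexus markers (−0.47), and higher for 10 of 10 oligodendrocyte markers (0.11). Summed choroid plexus markers were 4747 CPM in APP/PS1 female 2 and 255 to 385 CPM in the other APP/PS1 mice. The part of the cell type markers in the protocadherin values was not tested.

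Pcdhgb1, a variable gamma B isoform, had the smallest p of the members across sexes. It stood at 4.87, 5.12 and 5.91 CPM in APP/PS1 males, 5.57, 4.72 and 5.12 CPM in APP/PS1 females, 6.61, 7.19 and 5.41 CPM in knockout males and 6.74, 6.40 and 6.65 CPM in knockout females. Of the knockout mice 5 lay above all 6 APP/PS1 mice, and knockout male 3 lay among them. The log2 difference was 0.32 (SE 0.11, 95% interval 0.11 to 0.53, adjusted p = 1, edgeR). In no alternative did this difference leave the range 0.28 to 0.37.

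Pcdha11 (ENSMUSG00000007440), a variable alpha isoform, differed by 0.54 (SE 0.23, adjusted p = 1). It stood at 1.37, 3.11 and 2.20 CPM in APP/PS1 males, 3.29, 3.74 and 2.61 CPM in APP/PS1 females, 3.22, 2.42 and 3.92 CPM in knockout males and 7.07, 3.84 and 3.44 CPM in knockout females. Knockout female 1 was far above the others, and without it the difference was 0.36. The lower members with the smallest p were the variable isoforms Pcdha3 (−0.23, SE 0.17) and Pcdhb12 (−0.15, SE 0.15), both with an adjusted p of 1. Pcdha3 moved to −0.14 without APP/PS1 male 2. Leaving out 1 library at a time, Pcdhb12 ran from −0.25, without APP/PS1/Hras-/- male 1, to −0.06, without APP/PS1/Hras-/- female 1, and with RIN it was −0.32. For the 5 C-type genes, which include the 3 members with the most counts, the estimates lay between −0.0046 and 0.11.

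In males alone 0 members were called by edgeR, DESeq2 or limma-voom (0.0116% of all genes in edgeR), and edgeR placed 4 higher (Pcdha1, Pcdha5, Pcdhga1 and Pcdhga12) and 0 lower at an unadjusted p under 0.05 (7.27%, against 3.91% of all genes). The 3 knockout males lay above the 3 APP/PS1 males for 7 members and below them for 1, which was Pcdhb5. Over all genes 5.07% and 5.22% separated in these directions. Estimates were higher in the knockout for 45 of 55 members with a median of 0.22. By cluster the medians were 0.28 for gamma (21 of 22 higher), 0.26 for alpha (10 of 12) and 0.04 for beta (14 of 21). These cluster medians are given only with APP/PS1 male 1. That mouse lay below the other mice's median for 22 of 22 gamma and 13 of 13 alpha members. Without APP/PS1 male 1 the members' median was 0.06 with 36 higher and 20 lower, and 0 members had an unadjusted p under 0.05. Without APP/PS1/Hras-/- male 1 it was 0.11. In males RIN was 7.8, 8.2 and 8.3 in APP/PS1 and 8.6, 8.7 and 8.7 in the knockout, so that RIN and genotype cannot be told apart there, and with RIN as a covariate the median was −0.27 with 15 higher and 40 lower. In the same comparison the estimates were higher in the knockout for 10 of 10 choroid plexus markers (median 1.48) and 12 of 12 endothelial and mural markers (0.17), and lower for 10 of 12 cortical neuron (−0.13), 10 of 11 interneuron (−0.12) and 10 of 12 striatal neuron markers (−0.23). Summed choroid plexus markers were 272 to 385 CPM in APP/PS1 and 180.3 to 988 CPM in knockout males, and endothelial and mural markers 400.0 to 433 CPM and 432 to 521 CPM. Cortical neuron markers were 5502 to 5814 CPM and 5436 to 5607 CPM, and interneuron markers 1204 to 1312 CPM and 1018 to 1266 CPM. Each pair of ranges overlapped, all markers were detected, and their part in the shift was not tested.

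Pcdhga1, a variable gamma A isoform, stood at 2.91, 5.75 and 3.71 CPM in APP/PS1 males and 5.79, 7.68 and 6.34 CPM in knockout males. The groups were separate by the narrow step from 5.75 to 5.79 CPM. Its log2 difference was 0.67 (SE 0.24, adjusted p = 0.945, edgeR), and it was −0.17 with RIN as a covariate. Pcdhga12, the last gamma A isoform, stood at 11.3, 13.1 and 13.5 CPM against 16.6, 15 and 17.1 CPM, a difference of 0.36 (SE 0.14, adjusted p = 0.945), and 0.05 with RIN. The lower members with the smallest p were the beta genes Pcdhb5 (−0.27, SE 0.19) and Pcdhb13 (−0.17, SE 0.18). Pcdhb5 stood at 7.19, 7.51 and 8.17 CPM in APP/PS1 and 5.15, 6.87 and 6.96 CPM in knockout males, with adjusted p = 0.945. Its difference was −0.14 without APP/PS1/Hras-/- male 1 and −0.71 with RIN. Pcdhb13 ran from −0.29, without APP/PS1 male 1, to −0.08, without APP/PS1/Hras-/- male 2, and was −0.51 with RIN.

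In females 0 members were called by edgeR, DESeq2 or limma-voom (0.0116% of all genes in edgeR), and edgeR placed 1 higher (Pcdhgb1) and 3 lower (Pcdhb12, Pcdhga5 and Pcdhgc3) at an unadjusted p under 0.05 (7.27%, against 3.81% of all genes). Of the members 28 had higher and 27 lower estimates in the knockout, and the median was 0.01. Setting aside knockout female 1 gave −0.08, setting aside APP/PS1 female 1 gave 0.08, and with RIN as a covariate it was 0.08 with 38 higher and 17 lower. The medians of alpha (0.08), beta (0.01) and gamma (−0.02) all lay near 0. The knockout females lay above the APP/PS1 females for 1 member, Pcdhgb1, and below them for 4, Pcdhb12, Pcdhga5, Pcdhgc3 and Pcdhgc4, against 4.36% and 5% of all genes.

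Pcdhb12, a beta isoform, stood at 10.9, 9.72 and 10.8 CPM in APP/PS1 females and at 6.22, 7.89 and 6.87 CPM in knockout females. The groups were separate, and the log2 difference was −0.58 (SE 0.14, 95% interval −0.87 to −0.30, adjusted p = 0.991, edgeR), which ranked 12 of 17307 genes. In males it stood at 6.77, 7.45 and 6.80 CPM in APP/PS1 and 9.95, 8.43 and 7.40 CPM in the knockout. APP/PS1 females were thus the high group, with every mouse but knockout male 1 below all 3 of them. Part of its exon is overlapped on the opposite strand, and its level was 2.72 CPM per kb on same-strand length and 7.47 on either-strand length.

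Pcdhga5, a gamma A isoform, stood at 6.28, 6.85 and 10.2 CPM in APP/PS1 females and at 2.46, 4.76 and 5.04 CPM in knockout females. Its log2 difference was −0.92 (SE 0.27, 95% interval −1.44 to −0.40, adjusted p = 0.991, edgeR). Males stood at 5.35, 5.59 and 7.14 CPM in APP/PS1 and 9.83, 7.14 and 7.33 CPM in the knockout, so that the knockout females were the low group, below every other mouse. Pcdhgb1 was higher in knockout females by 0.36 (SE 0.16) and Pcdha11 (ENSMUSG00000007440) by 0.57 (SE 0.33), both with an adjusted p of 0.991, and Pcdha11 by 0.18 without knockout female 1.

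Among the C-type genes Pcdhgc3 stood at 69.9, 66.3 and 64.1 CPM in APP/PS1 females and 55.8, 59.9 and 54.8 CPM in knockout females. The groups were separate, with a log2 difference of −0.23 (SE 0.11, adjusted p = 0.991, edgeR). RIN was 8.6, 8.5 and 8.5 against 8.5, 8.4 and 8.3 in these mice. Pcdhgc4 stood at 11.7, 13.5 and 12.2 CPM against 10.1, 11.4 and 11.2 CPM. In the same comparison the estimates were lower in the knockout for 10 of 10 choroid plexus (median −2.21), 10 of 10 leptomeningeal fibroblast (−0.38), 12 of 12 striatal neuron (−0.31), 12 of 12 microglial (−0.23), 10 of 10 astrocyte (−0.18) and 8 of 10 oligodendrocyte precursor markers (−0.16). They were higher for 10 of 12 cortical neuron (0.26) and 10 of 10 oligodendrocyte markers (0.18). All of these markers were detected. Summed choroid plexus markers were 255 to 4747 CPM in APP/PS1 and 174 to 1055 CPM in knockout females, microglial markers 1029 to 1131 CPM and 774 to 1095 CPM, astrocyte markers 6845 to 7476 CPM and 5684 to 7112 CPM, striatal neuron markers 367 to 684 CPM and 323 to 505 CPM, oligodendrocyte markers 3598 to 7185 CPM and 4140.0 to 7917 CPM, and cortical neuron markers 5022 to 5700 CPM and 5405 to 5956 CPM. These 6 sums overlapped between the genotypes. The choroid plexus sum of 4747 CPM was that of APP/PS1 female 2, and APP/PS1 females 1 and 3 stood at 255 and 335 CPM. The sums of leptomeningeal fibroblast markers (132 to 188 CPM and 106 to 122 CPM) and of oligodendrocyte precursor markers (674 to 690 CPM and 596 to 648 CPM) did not overlap. The part of these markers in the protocadherin values was not tested.

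**Figure D4:**
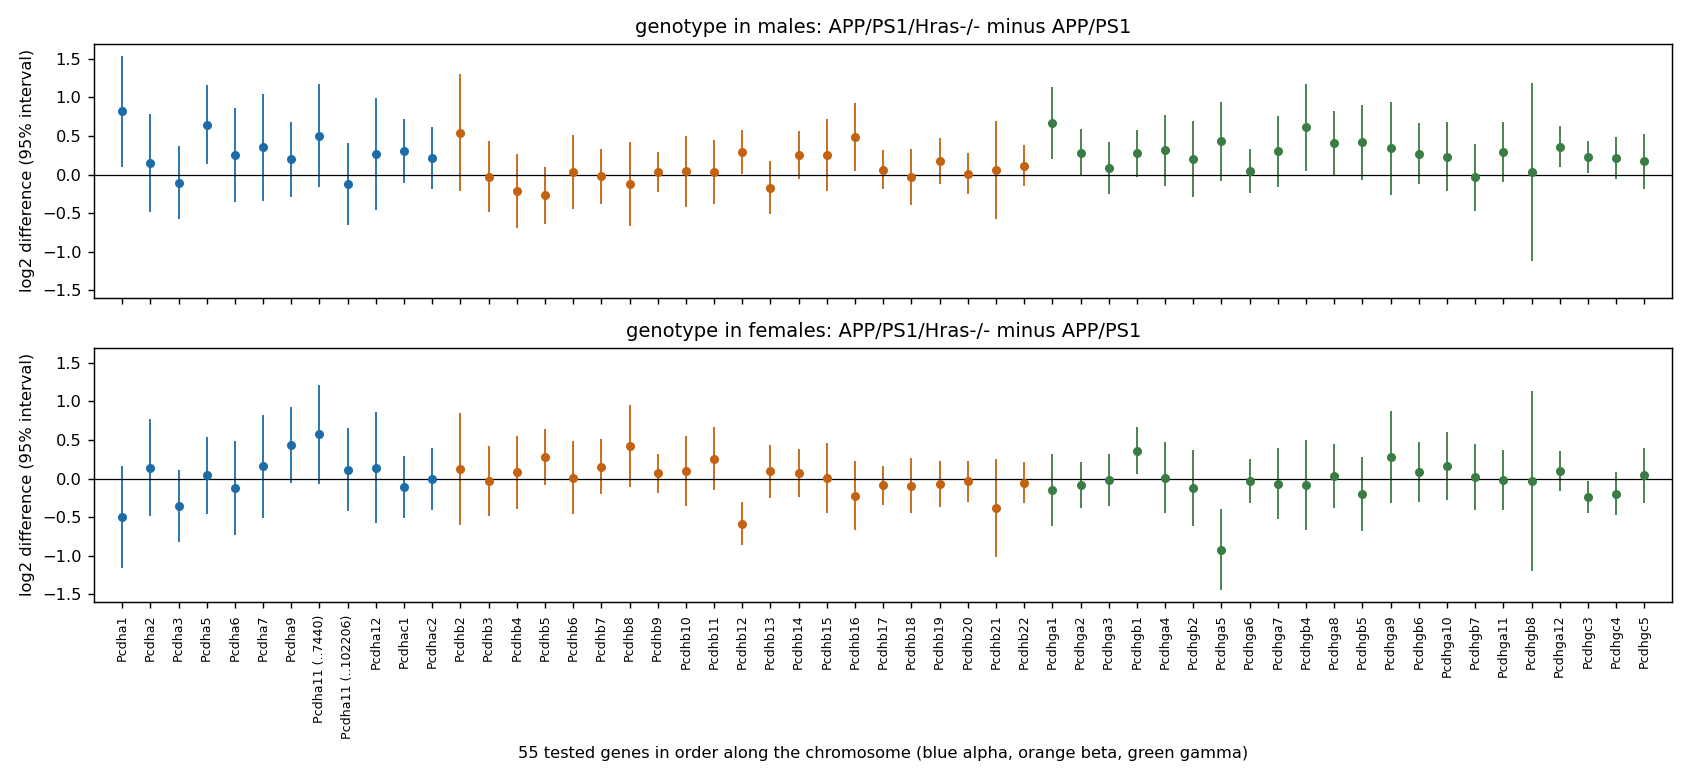
Log2 difference, APP/PS1/Hras-/- minus APP/PS1, with 95% interval for each of the 55 tested genes in order along the chromosome, in males (top) and females (bottom). In males 21 of 22 gamma genes lay above 0, and APP/PS1 male 1 lay below the other mice's median for 22 of 22. Over all members 45 of 55 were higher in males, against 36 higher and 20 lower without that mouse. With RIN as a covariate 15 were higher and 40 lower. In females Pcdhb12 (−0.58) and Pcdhga5 (−0.92) lay farthest below 0.

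The difference between the sexes in the genotype effect was tested as an interaction (the log2 difference in females minus that in males). Over all genes 0% were called, and 0 members were called by edgeR, DESeq2 or limma-voom. At an unadjusted p under 0.05 edgeR placed 0 members higher and 6 lower (10.9%, against 7.21% of all genes). Estimates were below 0 for 42 of 55 members with a median of −0.18. RIN was higher in the knockout in males but not in females, so that RIN and the interaction run together. The C-type genes had a median of −0.41 with 5 of 5 below 0, gamma −0.31 with 20 of 22, alpha −0.21 with 9 of 12 and beta −0.05 with 13 of 21. The members' median was −0.07 without APP/PS1 male 1 (22 above 0 and 34 below), −0.29 without APP/PS1/Hras-/- female 1, −0.11 without APP/PS1/Hras-/- female 3, −0.12 without APP/PS1 female 1 and 0.32 with RIN as a covariate (42 above and 13 below). Marker estimates were below 0 for 10 of 10 choroid plexus (median −3.61) and 10 of 10 leptomeningeal fibroblast markers (−0.56). They were also below 0 for 12 of 12 microglial (−0.33), 9 of 10 astrocyte (−0.29) and 10 of 12 endothelial and mural markers (−0.16). They were above 0 for 10 of 12 cortical neuron (0.38), 9 of 11 interneuron (0.21) and 10 of 10 oligodendrocyte markers (0.13). The part of these markers was not tested.

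Pcdhb12 had the interaction with the smallest p of the members, −0.88 (SE 0.20, 95% interval −1.28 to −0.47, adjusted p = 0.667, edgeR), ranking 5 of 17307. For Pcdhga5 it was −1.35 (SE 0.37, adjusted p = 0.667). Both followed from the mice given above, with opposite estimates in males and females. These estimates kept their sign in the 22 alternatives, between −0.97 and −0.76 for Pcdhb12 and between −1.58 and −1.09 for Pcdhga5, and the lowest adjusted p was 0.38 for either, in DESeq2. Pcdhgc3 gave −0.46 (SE 0.15, adjusted p = 0.667). Its level moved with RIN and was lowest in APP/PS1 male 1, at 47.0 CPM. The interaction of Pcdhgc3 without that mouse or with RIN as a covariate is not given here. The higher members with the smallest p were the beta genes Pcdhb5 (0.55, SE 0.27, adjusted p = 0.667) and Pcdhb8 (0.55, SE 0.39, adjusted p = 0.717). Without APP/PS1/Hras-/- female 1 they were 0.36 and 0.27, Pcdhb8 was 0.32 without APP/PS1 female 1, and with RIN as a covariate they were 1.09 and 1.17.

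**Figure D5:**
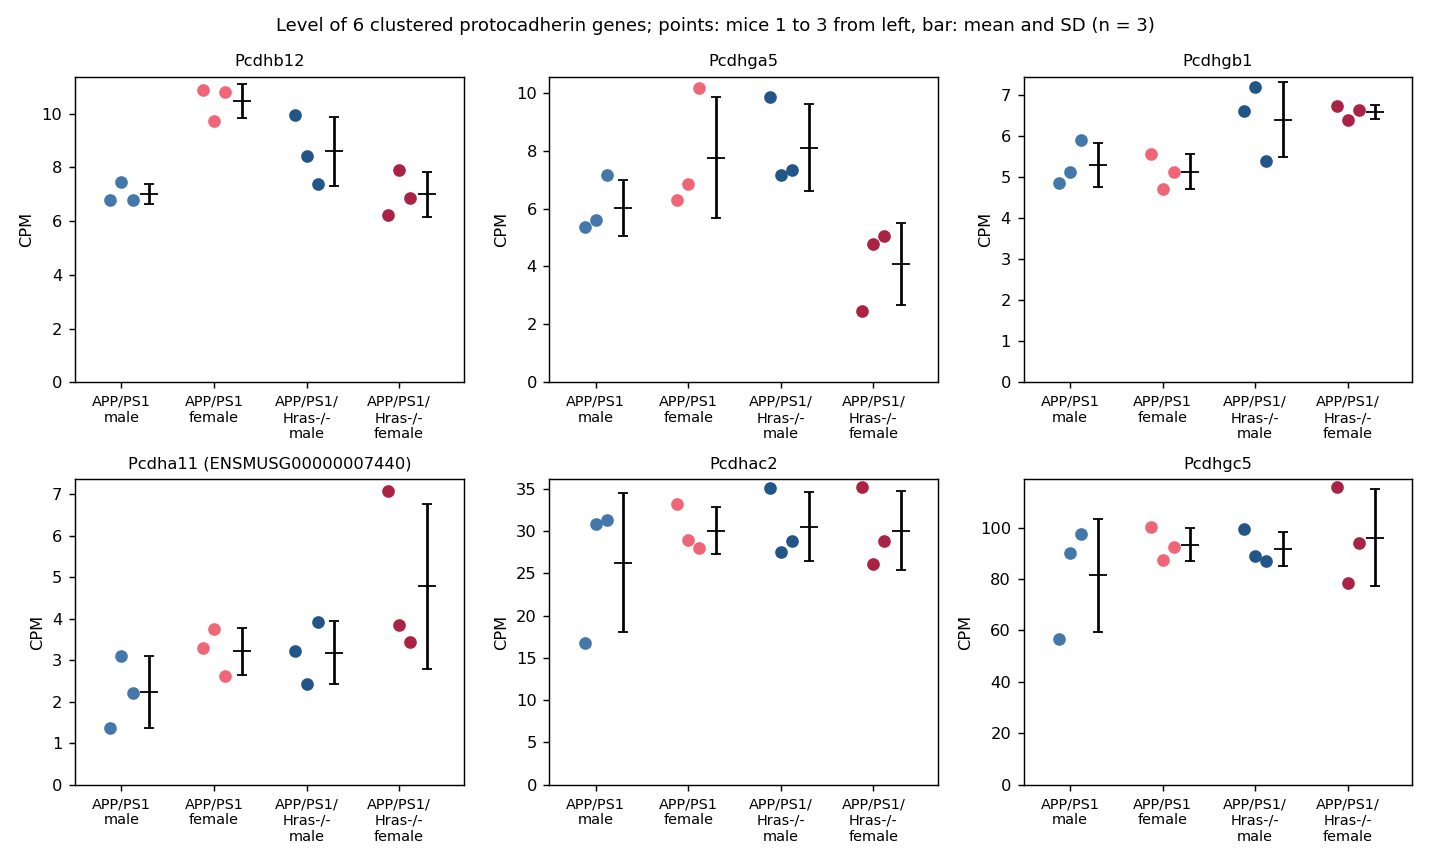
CPM of 6 members in each mouse (points, mice 1 to 3 from left) with mean and SD (n = 3) in the 4 groups; axes start at 0. For Pcdhb12 the APP/PS1 females lay high (9.72 to 10.9 CPM) and for Pcdhga5 the knockout females lay low (2.46 to 5.04 CPM), while Pcdhac2 and Pcdhgc5 showed the low APP/PS1 male 1.

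Females were also compared with males. Across genotypes 0 members were called by edgeR, DESeq2 or limma-voom (0.0693% of all genes in edgeR), and edgeR placed 1 (Pcdha11, ENSMUSG00000007440) higher in females and 0 lower at an unadjusted p under 0.05 (1.82%, against 4.65% of all genes). The sexes separated for 0 members, against 0.272% of all genes. The median difference, female minus male, was 0.12 with 39 of 55 higher, and 0.03 without APP/PS1 male 1 and 0.08 without APP/PS1 female 1. Pcdha11 (ENSMUSG00000007440) differed by 0.55 (SE 0.23) and Pcdhb2, the first beta member, by 0.53 (SE 0.26). Pcdhb2 stood at 1.25, 3.21 and 2.34 CPM in APP/PS1 males, 4.61, 2.70 and 4.09 CPM in APP/PS1 females, 3.10, 3.33 and 3.54 CPM in knockout males and 5.90, 4.55 and 2.05 CPM in knockout females, with the sexes overlapping in both genotypes. Pcdhgb4 (−0.44, SE 0.22) and Pcdha9 (−0.29, SE 0.17) were the lower members with the smallest p. All 4 had an adjusted p of 0.989.

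Within APP/PS1 mice 0 members were called by edgeR, DESeq2 or limma-voom (0.052% of all genes in edgeR), and edgeR placed 2 (Pcdhb12 and Pcdha1) higher in females and 0 lower at an unadjusted p under 0.05 (3.64%, against 10.7% of all genes). Estimates were higher in females for 46 of 55 members with a median of 0.17. The 3 females lay above the 3 males for 7 members and below for 0, against 10.2% and 9.93% of all genes. Without APP/PS1 male 1 the median was 0.07 with 34 higher and 22 lower, and with RIN as a covariate it was −0.22 with 19 higher and 36 lower. RIN was lower in every APP/PS1 male (7.8 to 8.3) than in every APP/PS1 female (8.5 to 8.6), and sex and RIN cannot be told apart in these mice. Pcdhb12 differed by 0.58 (SE 0.14, adjusted p = 0.375, edgeR), with every female above every male. Over the alternatives its adjusted p ran from 0.0836, in DESeq2, to 0.849. Pcdha1, the first alpha isoform, differed by 1.21 (SE 0.36, adjusted p = 0.378) at low levels, 0.475, 0.414 and 0.618 CPM in males against 1.11, 0.920 and 1.43 CPM in females. Pcdha9 (−0.41, SE 0.25, adjusted p = 0.553) and Pcdha11 (ENSMUSG00000102206, −0.30, SE 0.27, adjusted p = 0.694) had lower estimates in females. For Pcdha11 the difference was −0.54 without APP/PS1 male 1, −0.08 without APP/PS1 male 3, −0.09 without APP/PS1 female 2 and −1.07 with RIN, and for Pcdha9 it was −0.24 without APP/PS1 male 3 and −0.82 with RIN. Microglial markers summed to 639 to 860 CPM in APP/PS1 males and 1029 to 1131 CPM in APP/PS1 females, with 12 of 12 detected, and choroid plexus markers to 272 to 385 CPM and 255 to 4747 CPM, with 10 of 10 detected. Estimates were higher in females for 12 of 12 microglial (median 0.56), 10 of 10 choroid plexus (3.09), 10 of 10 leptomeningeal fibroblast (0.59), 12 of 12 endothelial and mural (0.24) and 10 of 10 astrocyte markers (0.23), and lower for 10 of 10 oligodendrocyte (−0.14), 10 of 12 cortical neuron (−0.24) and 10 of 11 interneuron markers (−0.29). The choroid plexus sum of 4747 CPM was that of APP/PS1 female 2, and APP/PS1 females 1 and 3 stood at 255 and 335 CPM. The part of these cell type markers in the sex differences was not tested.

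Within APP/PS1/Hras-/- mice 0 members were called by edgeR, DESeq2 or limma-voom (0.0462% of all genes in edgeR), and edgeR placed 0 higher in females and 4 lower at an unadjusted p under 0.05 (7.27%, against 2.64% of all genes). All 4 were gamma genes, namely Pcdhga5, Pcdhgb4, Pcdhgc3 and Pcdhgc4. Females lay above males for 3 members, the beta genes Pcdhb4, Pcdhb5 and Pcdhb8, and below for 5, these 4 gamma genes and Pcdhga11, against 3.14% and 2.84% of all genes. The medians were 0.17 for beta (14 of 21 higher) and −0.11 for gamma (8 of 22), and −0.02 for all members. The members' median ran from −0.07, without APP/PS1/Hras-/- female 1, to 0.06, without APP/PS1/Hras-/- female 3, and with RIN as a covariate it was 0.20 with 42 higher and 13 lower. Estimates were lower in females for 10 of 10 choroid plexus (median −0.60) and 11 of 12 striatal neuron markers (−0.35), and higher for 11 of 12 cortical neuron (0.14) and 11 of 12 microglial markers (0.19), and their part was not tested.

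Pcdhga5 differed between knockout females and males by −0.98 (SE 0.27, adjusted p = 1, edgeR) from the levels already given. Pcdhgb4, a gamma B isoform, stood at 4.39, 4.35 and 4.29 CPM in males and 1.69, 3.84 and 2.11 CPM in females, a difference of −0.78 (SE 0.29, adjusted p = 1). Pcdhgc3 stood at 65.6, 72.3 and 62.3 CPM in knockout males, and Pcdhgc4 at 15.2, 13.1 and 14 CPM, both above the knockout females. RIN was 8.6 to 8.7 in these males and 8.3 to 8.5 in the females, so that sex and RIN cannot be told apart in the knockout mice. Pcdhb8 stood at 4.33, 3.54 and 3.29 CPM in males against 7.33, 4.34 and 4.54 CPM in females (0.54, SE 0.27, adjusted p = 1). Pcdhb5 stood at 5.15, 6.87 and 6.96 CPM against 10.5, 7.18 and 7.48 CPM (0.41, SE 0.19, adjusted p = 1). Knockout female 1 was the highest mouse for both beta genes, and the other females lay close above the males. Without it the differences were 0.25 for Pcdhb8 and 0.21 for Pcdhb5, and Pcdhb5 was 0.27 without knockout male 1. Pcdhgb4 moved to −1.19 without knockout female 2.

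The spread between mice of a group was read from the edgeR fit. The median biological coefficient of variation was 0.218 for alpha, 0.163 for beta and 0.187 for gamma genes, against 0.143 over the 13784 tested genes within the members' range of mean CPM. Set against the fitted trend with abundance, 11 of 55 members lay above it and 3054 of the 13784 genes did, so that a like share of each exceeded it. Over all 12 mice the highest library held a median of 2.44 times the lowest for alpha members, 1.75 times for beta and 2.08 times for gamma. Among better counted genes Pcdhga5 (4.12 times), Pcdha12 (3.55 times) and Pcdhga9 (3.23 times) ranged widely. Pcdha11 (ENSMUSG00000007440, 5.17 times) and Pcdhb2 (4.73 times), with fewer counts, ranged more widely than these. Pcdhb20 (1.33 times) and Pcdhga6 (1.40 times) ranged least in their clusters.

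Genes related to the clusters by function were read in 6 lists holding 81 tested genes, and 0 of these were called by edgeR in any of the 7 comparisons. At an unadjusted p under 0.05 there were 0 across sexes (1.68% of all genes), 2 in males (3.91%) and 2 in females (3.81%). There were 9 for the interaction (7.21%), 1 for sex across genotypes (4.65%) and 8 for sex in APP/PS1 (10.7%). For sex in APP/PS1/Hras-/- mice there were 0 (2.64%). In males the nonclustered protocadherins, relatives encoded outside the locus, had a median of 0.25 with 10 of 11 higher in the knockout, and the CTCF and cohesin genes that form the promoter loops 0.08 with 11 of 11 higher, against 0.01 for all genes tested. In the classical cadherins the median was 0.10 (11 of 16 higher), in silencing and DNA methylation genes 0.03 (11 of 14), in signalling partners of the cytoplasmic domain 0.02 (12 of 20) and in the proteases that shed and cleave protocadherins 0.07 (5 of 9). The summed level of the nonclustered protocadherins was 802, 870 and 918 CPM in APP/PS1 males and 1028, 887 and 905 CPM in knockout males, with APP/PS1 male 1 again the lowest of the 12 mice. In females their median was −0.02 with 5 of 11 higher. The summed level of the CTCF and cohesin genes was 739, 814 and 805 CPM in APP/PS1 males. It was 842, 862 and 801 CPM in knockout males. APP/PS1 male 1 was the lowest of the 12 mice there as well, and the other APP/PS1 males overlapped the knockout males.

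Across sexes the list genes with the smallest p were Pcdh10 (0.10, SE 0.059), a nonclustered protocadherin, Cdh20 (0.14, SE 0.092), a cadherin, Smc3 (0.09, SE 0.068), a cohesin subunit, Dnmt3a (0.08, SE 0.058), a DNA methyltransferase, Brk1 (−0.10, SE 0.069), a part of the WAVE complex bound by protocadherin tails, and Psen2 (0.15, SE 0.080), a catalytic subunit of gamma-secretase. Each had an adjusted p of 1. Of the other 39 tested genes within 1 Mb of the clusters 21 were higher and 18 lower in the knockout across sexes with a median of 0.01, 0 were called, and the smallest p was that of Ik (0.08, adjusted p = 1). In males, where the members' median was 0.22, the median of these neighbours was −0.02 with 15 higher and 24 lower. The members' median was 0.06 without APP/PS1 male 1 and −0.27 with RIN as a covariate. The neighbours' median is given for the main setting only.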

How the data were processed

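The TruSeq Stranded mRNA kit was used and each library has a RIN, per the labels. The deposited table holds raw read counts per Ensembl gene for 12 libraries. Per the submitters' processing notes the tools were HISAT2 2.1.0, featureCounts, Trimmomatic 0.33 and FastQC 0.11.7, and the builds mm10 and mm9 are listed with no role. Strandedness of the counting, the annotation used and the handling of multiply aligned reads are not given there.

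Identifiers were matched to GENCODE M21 on GRCm38; 37 genes, with 0.00986% of counts, had no match. Genes were kept by filterByExpr over the 4 groups (17307 genes) and tested in R 4.3.3 with the edgeR 4.0.16 quasi-likelihood test (TMM, robust dispersions), adjusted by Benjamini-Hochberg over all genes tested, at a threshold of 0.05. Effects across sexes or genotypes came from an additive model, and all others from the means of the 4 groups. Intervals use the normal quantile 1.96, while p-values come from the quasi-likelihood F test. The intervals are therefore somewhat narrow, and an interval can exclude 0 where the unadjusted p is above 0.05. For Pcdhb5 in the interaction it ran from 0.03 to 1.07 at an unadjusted p of 0.0596 (edgeR). P-values measure the spread between the mice sampled. Correlations used 100000 permutations, two-sided. The tests were also run on simulated counts with planted changes. The share recovered is not given here, so the size of change that could be detected is not stated.

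The members, gene lists and comparisons were chosen with earlier results of these data known. Named for level were the C-type genes, the 3 highest and 3 lowest members of each cluster by CPM, and members under the filter. Named for each comparison were the 2 higher and 2 lower members with the smallest p, and 1 gene of each list and of the neighbours. Other members were named after their values were seen. Alternatives were limma-voom (limma 3.58.1), DESeq2 1.42.0, scaling by RLE or upper quartile, a low-count filter that was absent or asked 1 CPM in 3 libraries, dispersions without robust fitting, a covariate for RIN, a threshold of 0.1, each library left out, and both libraries apart on the first principal component left out (female 2 of APP/PS1 and male 1 of APP/PS1/Hras-/-). The same-strand length and the sums without APP/PS1 male 1 were added after seeing the data. No sequence of the locus is printed.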

Additional observations from a re-analysis of the deposited data

Results flagged for a closer look

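In 70 sets of 6 mice of a genotype (members the text names and cluster sums), 8 held a mouse far from the other 5 by Dixon's test, and chance gives about 1 in 20. The sets are not separate draws, since the sums contain the named members and many members were named for their differences. The rate of 1 in 20 is therefore only a rough guide. Of the 8, 5 lay in APP/PS1 male 1. There the alpha sum was 38.5 CPM (58.3 to 70.3 CPM in the other APP/PS1 mice), the gamma sum 222 CPM (318 to 357 CPM), Pcdhac2 16.7 CPM (28.0 to 33.3 CPM), Pcdhgc3 47.0 CPM (61.8 to 69.9 CPM) and Pcdhgc5 56.5 CPM (87.6 to 100.3 CPM). APP/PS1/Hras-/- female 1 lay high for Pcdha11 (ENSMUSG00000007440) at 7.07 CPM (2.42 to 3.92 CPM in the other knockout mice) and for Pcdhb8 at 7.33 CPM (3.29 to 4.54 CPM). APP/PS1 female 3 lay high for Pcdhga5 at 10.2 CPM (5.35 to 7.14 CPM in the other APP/PS1 mice).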

How the results depend on the processing

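No member was called in any of the 7 comparisons under the 22 alternatives to each. The lowest adjusted p of any member over the alternatives was 0.998 across sexes, 0.529 in males, 0.639 in females, 0.38 for the interaction, 0.454 for sex across genotypes, 0.0836 for sex in APP/PS1 and 0.434 for sex in APP/PS1/Hras-/- mice. Of 616 alternative values of the 28 named log2 differences, 615 kept their direction and side of the threshold, and Pcdhga1 in males turned to −0.17 with RIN as a covariate. Part of this was fixed in advance. The threshold of 0.1 reused the main estimates, and a library left out outside the compared groups kept all their mice. The count also says little about size, as Pcdhb13 in males ran from −0.08 to −0.51. With RIN the members' median moved to −0.27 in males, 0.32 for the interaction, −0.22 for sex in APP/PS1 and 0.20 for sex in APP/PS1/Hras-/- mice. Leaving out 1 library at a time, the median in males ran from 0.0577 to 0.285, and across sexes from 0.02 to 0.13. Counting only members with at least 600 counts, the alpha sum was 53.1 CPM in APP/PS1 females and 56.6 CPM in knockout males, and the beta sum 130.3 CPM in APP/PS1 males, by construction lower. Over all exons, shared bases included, the medians per kb were 0.442 CPM for alpha, 2.01 for gamma A, 0.978 for gamma B and 4.97 for C-type genes, since the lengths are longer. No paired analysis was possible because the labels give no litter or pairing of the mice. Members under 200 counts in total (Pcdha8, Pcdhgb8, Pcdha1) give CPM of low precision.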
